A study of Mus musculus with 9 samples.

Results

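Sugar enters the liver cell through facilitative transporters and is then trapped, split or rebuilt by a small set of enzymes. Expression of 8 genes of this route was followed in mouse liver: the transporters Slc2a5, Slc2a2 and Slc2a1, the enzymes Khk, Pklr, Pkm and Fbp1, and the regulator Gckr. They were chosen by name, as the rows of the deposited count table that carry these symbols. All 8 were among the 24008 genes listed and among the 14379 genes with enough reads to be tested.

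RNA was sequenced from pieces of whole liver of 9 mice with diet-induced nonalcoholic steatohepatitis (NASH), 3 mice per group and 1 library per mouse. Flox mice, named WT in the sample labels, were the controls without the muscle deletion. F4MKO mice lacked IRF4 (interferon regulatory factor 4, a transcription factor) in skeletal muscle, through Myl-Cre and floxed IRF4 on a C57BL/6J background. F4MKO + FSTL1 mice were F4MKO mice whose gastrocnemius received an AAV8 vector encoding the secreted protein FSTL1 (follistatin-like 1), tagged with Flag, under the muscle creatine kinase promoter. According to the methods, the other groups received AAV-GFP, although the labels name no vector for them. All 3 groups ate a high fat and high carbohydrate diet with cholesterol, and the methods add a drink of fructose and glucose. The diet lasted 24 weeks before the virus in one passage of the methods and 12 weeks in another, and livers were taken 4 weeks after the virus. The reporting summary of the paper gives male mice of 8 weeks for the study, though females were also used in part of it. The methods state that age only for wild-type mice, and the labels give no age or sex for these livers. Since both manipulations were made in muscle, the comparisons ask how sugar-handling genes of the liver differ when muscle lacks IRF4 and when it then makes FSTL1.

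The libraries held between 20656976 and 24322984 counted reads, and levels are given as CPM, the reads of a gene in each 1000000 counted reads after TMM scaling of the library sizes. Liver Irf4, which the muscle deletion should not touch and which therefore does not check the labels, had 92 to 132 reads in 8 libraries and 10 reads in F4MKO + FSTL1 replicate 1. Without that library the log2 fold changes between F4MKO + FSTL1 and F4MKO were 2.41 for Slc2a5 and -0.75 for Pkm, and both remained called. Liver Fstl1 was 2.89-fold lower in F4MKO + FSTL1 than in F4MKO (4.29 ± 1.05 against 12.4 ± 3.30 CPM, SD, n = 3), and the groups did not overlap. No liver gene here checks which mice carried the muscle deletion or the vector, so every direction below rests on the labels as deposited. Whether the labels F4MKO and F4MKO + FSTL1 were exchanged was not tested. An exchange would turn the direction of the Slc2a5 and Pkm differences between these groups. It would also move each difference from Flox, such as the Slc2a5 call, to the other of these groups. A gene was called when its adjusted p was under 0.05 and its fold change above 1.5 (quasi-likelihood test of edgeR, adjusted over all tested genes by the method of Benjamini and Hochberg). The F4MKO libraries were used in 2 of the 3 comparisons, as were the Flox and the F4MKO + FSTL1 libraries, so the comparisons are not independent of each other.

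Fructose reaches cells through GLUT5, encoded by Slc2a5, and GLUT2, encoded by Slc2a2, while GLUT1, encoded by Slc2a1, carries glucose into most cells other than hepatocytes. In hepatocytes, ketohexokinase (Khk) phosphorylates fructose and so bypasses the regulated early step of glycolysis. The protein encoded by Gckr restrains hepatic glucose phosphorylation until fructose or glucose is supplied. Pyruvate kinase closes glycolysis in its liver form (Pklr) or in the form of most other cells (Pkm), and fructose-1,6-bisphosphatase (Fbp1) runs the opposing step of gluconeogenesis. The sugar-sensing factor ChREBP binds carbohydrate response elements, of which the element before Pklr is the textbook example.

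The stretches before the transcription starts are shown because carbohydrate response elements and hepatocyte factor sites there are the usual link between sugar supply and these genes. They come from the RefSeq promoter table for GRCm38.p6, the patched form of mm10, which held 10 promoters for the 8 genes. Each was searched on both strands for 3 motifs: a carbohydrate response element (half-sites CACGNG and CNCGTG, 5 bases apart), the E-box CACGTG, which can overlap such a half-site, and the HNF1 half-site GTTAAT. Capitals mark matches. The windows lie at chr4:150119094-150119282 for Slc2a5, chr3:89136373-89136571 for the second Pklr start, chr5:30921482-30921511 for Khk and chr5:31297492-31297521 for Gckr, all on the plus strand, and those of Slc2a5 and Pklr stop where an annotated exon begins. Starts are those of RefSeq. In GENCODE, Khk and Gckr begin farther upstream, so their windows lie inside an annotated exon of the gene, and the Pklr window lies past the first start of that gene.
Slc2a5: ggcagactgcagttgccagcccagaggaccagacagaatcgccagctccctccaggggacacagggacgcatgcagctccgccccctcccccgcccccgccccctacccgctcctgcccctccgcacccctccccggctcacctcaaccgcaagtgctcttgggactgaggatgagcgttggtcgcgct
Pklr: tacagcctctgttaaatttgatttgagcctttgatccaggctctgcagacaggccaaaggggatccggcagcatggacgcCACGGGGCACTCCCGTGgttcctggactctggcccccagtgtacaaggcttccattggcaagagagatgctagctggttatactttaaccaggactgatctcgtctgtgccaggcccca
Khk: ccccgtCACGTGacaccGTTAATctggcgc
Gckr: cagggttcttagGTTAATcatctccatggc
The carbohydrate response element stood 170 to 154 bases before the second Pklr start, and 15 of 32851 promoters (0.0457%) held such a match. Khk had an E-box 71 to 66 bases and an HNF1 half-site 60 to 55 bases before its RefSeq start, and Gckr had an HNF1 half-site 59 to 54 bases before its RefSeq start. These shorter motifs are common, since 7.15% of all promoters held the E-box and 7.1% the HNF1 half-site. These letters were not found in the windows of Slc2a5, Slc2a2, Slc2a1, Pkm and Fbp1.

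The 8 genes spanned a wide range of levels, compared here as CPM per kilobase of transcript. In Flox livers the order ran from Fbp1 (732 ± 67.8, SD, n = 3) and Khk (349 ± 56.7) through Pklr (95.9 ± 28.8), Gckr (80.9 ± 10.9), Slc2a2 (39.8 ± 8.33) and Pkm (15.3 ± 1.47) to Slc2a1 (4.20 ± 0.292) and Slc2a5 (0.316 ± 0.116). The order was the same in F4MKO and in F4MKO + FSTL1 livers. Only the neighbours Pklr and Gckr overlapped in their ranges, and did so in all 3 groups, so that their order is not larger than the spread between mice. Slc2a1 and Slc2a5, the 2 lowest, are also the genes with the fewest reads behind their values.

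**Figure D1:**
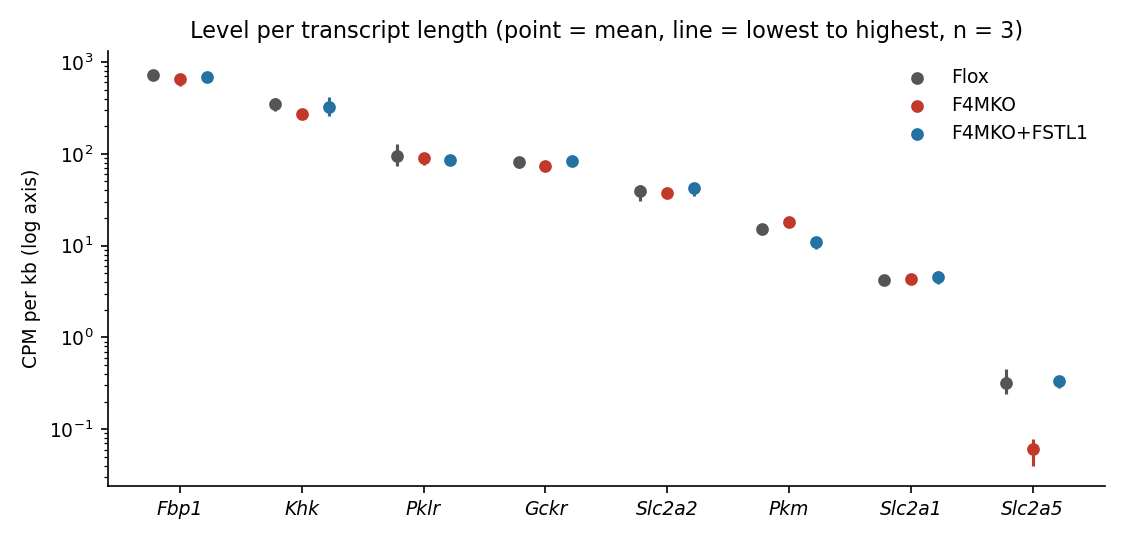
Mean level of the 8 genes in CPM per kilobase of transcript (vertical log axis), ordered by their level in Flox livers; points are group means of 3 libraries and lines run from the lowest to the highest library. Fbp1 lies at the top with 732 in Flox livers, Slc2a5 at the bottom with 0.316, and the F4MKO point of Slc2a5, at 0.0605, stands apart from those of the other groups.

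In the F4MKO livers, 1 of the 8 genes was called against Flox, Slc2a5, which was lower, where 0.271% of all tested genes were called. In F4MKO + FSTL1 livers, 2 of the 8 were called against F4MKO, Slc2a5 higher and Pkm lower, where 14.4% of all tested genes were called. Against Flox, 0 of the 8 were called in F4MKO + FSTL1 livers by edgeR, where 0.00695% of all tested genes were called. DESeq2 likewise called 0 of the 8. By edgeR, 1 of the 8 had an unadjusted p under 0.05, beside 13.4% of all tested genes. The groups did not overlap for 3 of the 8 genes in the first comparison, 3 in the second and 1 in the third, beside 21.8%, 39% and 18.2% of all tested genes.

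**Figure D2:**
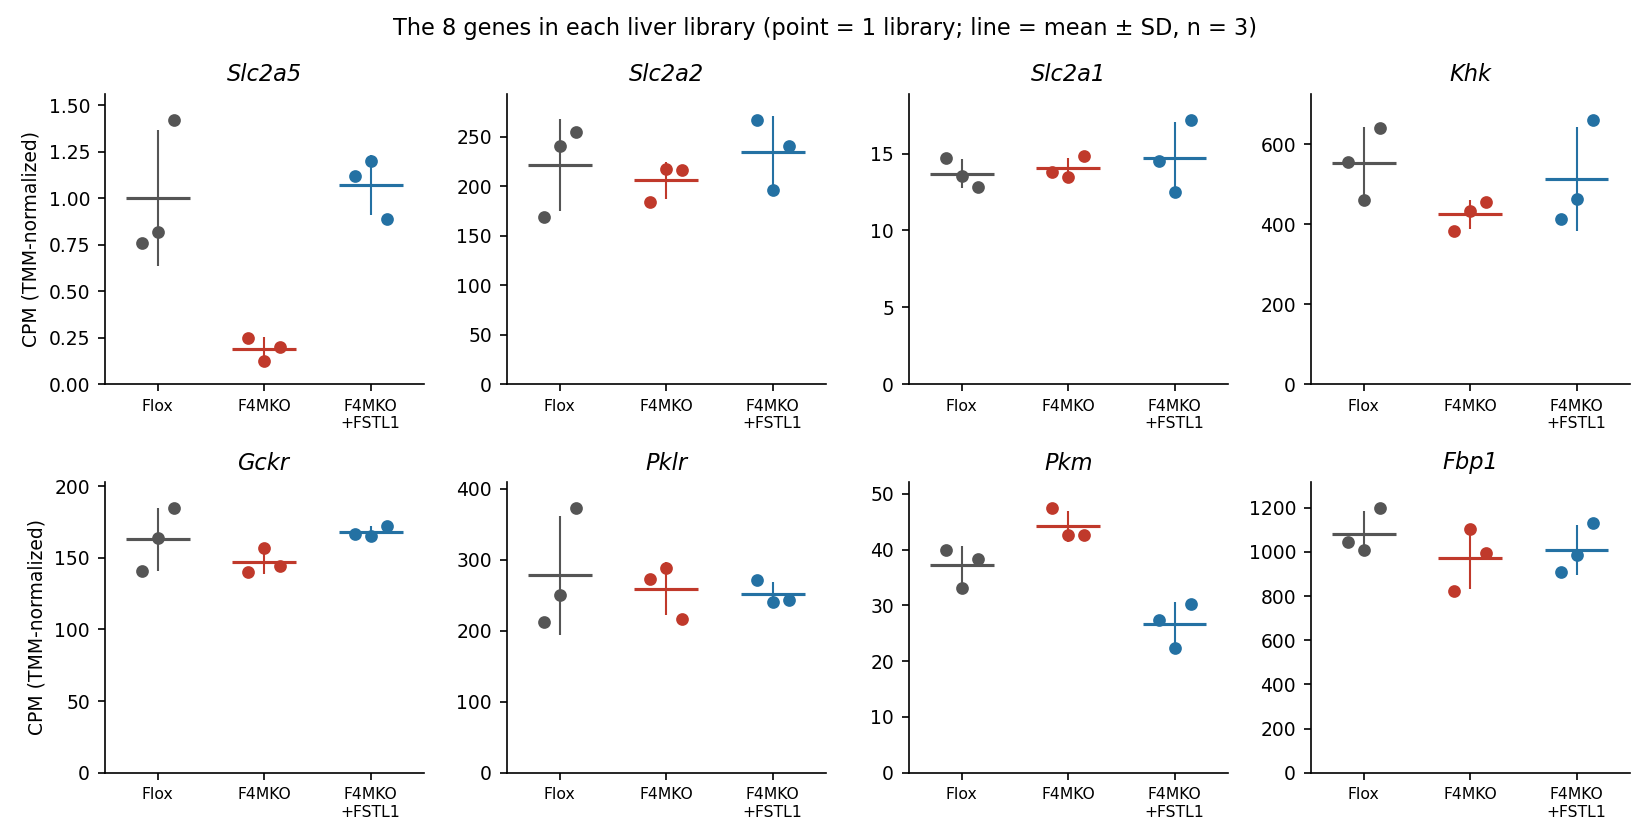
CPM of each gene (vertical axes, each starting at 0) in Flox, F4MKO and F4MKO + FSTL1 livers; each point is 1 library, the horizontal line the mean and the vertical line the SD (n = 3). The F4MKO points of Slc2a5, between 0.126 and 0.248 CPM, lie below all others, and the F4MKO + FSTL1 points of Pkm, between 22.3 and 30.2 CPM, lie below all others, while the groups of the remaining genes overlap in all or most pairs.

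Slc2a5 encodes GLUT5, the transporter most selective for fructose, which is best known from the small intestine and is scarce in liver. The gene lies at chr4:150119283-150144169 on the plus strand (GENCODE, GRCm38) and its transcript of 3158 bases has 14 exons. The Flox libraries held 17, 20 and 32 reads (0.758, 0.819 and 1.42 CPM), the F4MKO libraries 7, 3 and 5 reads (0.248, 0.126 and 0.200 CPM) and the F4MKO + FSTL1 libraries 24, 25 and 17 reads (1.12, 1.20 and 0.888 CPM). Every F4MKO library was thus below every library of the other groups, and the Flox and F4MKO + FSTL1 libraries overlapped. The level was 5.04-fold lower in F4MKO than in Flox livers (log2 fold change -2.33, SE 0.39, 95% interval -3.20 to -1.47, adjusted p = 0.0404, edgeR). It was 5.42-fold higher in F4MKO + FSTL1 than in F4MKO livers (log2 fold change 2.44, SE 0.39, interval 1.57 to 3.30, adjusted p = 0.00252, edgeR). Between F4MKO + FSTL1 and Flox livers the log2 difference was 0.10 (interval -0.60 to 0.81, adjusted p = 0.941, edgeR), which leaves room for a difference in either direction.

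The reads behind the Slc2a5 values are few, 69 in all Flox libraries, 15 in all F4MKO libraries and 66 in all F4MKO + FSTL1 libraries. From these sums, Flox exceeded F4MKO 5.12-fold (95% exact interval 2.90 to 9.64) and F4MKO + FSTL1 exceeded F4MKO 5.54-fold (3.13 to 10.4), intervals that cover counting error only. The first call did not survive the loss of any 1 library. In the 9 fits that each left out a library, the log2 fold change stayed between -2.57 and -2.00 while the adjusted p ran from 0.0502 to 0.149, and with only the Flox and F4MKO libraries in the fit it was 0.0631 (edgeR). Across the genome, 0 of the 39 genes called between F4MKO and Flox were called in all 9 of these fits, and Slc2a5 was the 1 gene called in none of them. The second call held in 9 of 9 such fits, with log2 fold changes of 2.23 to 2.67 and adjusted p between 0.00223 and 0.0142 (edgeR). Since Slc2a5 is an enterocyte gene, enterocyte markers were read beside it, with values for 5 of 6 markers. The brush-border enzyme genes Lct and Alpi had 0 or 1 read in each library. Vil1, also below the filter on low counts, had 3 to 7 reads in Flox, 7 to 36 in F4MKO and 2 to 4 in F4MKO + FSTL1 libraries. DESeq2, with its own filtering, called Vil1 lower in F4MKO + FSTL1 than in F4MKO livers, opposite to Slc2a5, and did not call it between F4MKO and Flox. Of the 2 tested markers, both also expressed by hepatocytes, Fabp2 was lowest in F4MKO as Slc2a5 was (152 to 221 CPM in Flox, 124 to 127 in F4MKO and 168 to 267 in F4MKO + FSTL1 livers). Fabp2 rose between F4MKO + FSTL1 and F4MKO (log2 fold change 0.78, adjusted p = 0.0111, edgeR) and was not called between F4MKO and Flox (-0.49, adjusted p = 0.201, edgeR). Apoa4, the other, overlapped between all groups (log2 differences 0.08 for F4MKO against Flox and -0.11 for F4MKO + FSTL1 against F4MKO). The summed level of the 5 markers, most of it Apoa4, was 2896 to 4124 CPM in Flox, 2780 to 4764 CPM in F4MKO and 3122 to 4661 CPM in F4MKO + FSTL1 livers, and the part of enterocyte RNA in the Slc2a5 values was not tested.

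Slc2a2 encodes GLUT2, the main glucose and fructose carrier of hepatocytes (chr3:28697903-28731359, plus strand). Its levels were 169, 241 and 255 CPM in Flox, 184, 217 and 217 CPM in F4MKO and 267, 196 and 241 CPM in F4MKO + FSTL1 livers. The groups overlapped, and Flox replicate 1 was the lowest of the 9 libraries. The log2 difference of F4MKO from Flox was -0.11 (95% interval -0.47 to 0.26, adjusted p = 0.788, edgeR). That of F4MKO + FSTL1 from F4MKO was 0.19 (interval -0.17 to 0.55, adjusted p = 0.448, edgeR), an interval whose upper end stays under 1.5-fold.

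Slc2a1 encodes GLUT1, which in liver is found mainly outside hepatocytes (chr4:119108711-119137983, plus strand). It measured 14.7, 13.6 and 12.8 CPM in Flox, 13.8, 13.4 and 14.8 CPM in F4MKO and 14.5, 12.5 and 17.2 CPM in F4MKO + FSTL1 livers. The groups overlapped, with the highest and the lowest library both in F4MKO + FSTL1. The log2 differences were 0.03 (interval -0.24 to 0.31) for F4MKO against Flox, 0.07 (-0.21 to 0.35) for F4MKO + FSTL1 against F4MKO and 0.10 (-0.18 to 0.38) for F4MKO + FSTL1 against Flox. These intervals exclude a 1.5-fold difference in each of the 3 comparisons. Within a library, the log2 ratio of Slc2a1 to Slc2a2 reads averaged -3.99 ± 0.42 in Flox, -3.87 ± 0.14 in F4MKO and -3.99 ± 0.20 in F4MKO + FSTL1 livers (SD, n = 3). The ratio differed by 0.12 between F4MKO and Flox (exact permutation test, two-sided, p = 0.7) and by -0.12 between F4MKO + FSTL1 and F4MKO (p = 0.5), where 3 against 3 libraries cannot give a p below 0.1.

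Khk encodes ketohexokinase, the enzyme that commits fructose to hepatic breakdown (chr5:30921431-30931248, plus strand). It stood at 555, 461 and 641 CPM in Flox, 384, 434 and 457 CPM in F4MKO and 414, 465 and 661 CPM in F4MKO + FSTL1 livers. All F4MKO libraries were below all Flox libraries, though the highest F4MKO and the lowest Flox library lay close together, at 457 and 461 CPM. The log2 difference of -0.38 between F4MKO and Flox did not pass the test (SE 0.18, interval -0.77 to 0.01, adjusted p = 0.313, edgeR). F4MKO + FSTL1 livers overlapped both other groups, with a log2 difference from F4MKO of 0.27 (interval -0.12 to 0.66, adjusted p = 0.304, edgeR).

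Gckr encodes a regulatory protein of hepatocytes that responds to fructose phosphates (chr5:31297443-31327314, plus strand). Its values were 141, 164 and 184 CPM in Flox, 140, 157 and 144 CPM in F4MKO and 166, 165 and 172 CPM in F4MKO + FSTL1 livers. The F4MKO + FSTL1 libraries lay close together, with a coefficient of variation of 2.35%, and all 3 were above the F4MKO libraries, whereas Flox overlapped both groups. The log2 difference of F4MKO + FSTL1 from F4MKO was 0.19 (SE 0.11, interval -0.05 to 0.43, adjusted p = 0.242, edgeR), which neither passed the test nor reached 1.5-fold at the upper end of its interval. F4MKO differed from Flox by -0.15 (interval -0.39 to 0.10, adjusted p = 0.529, edgeR).

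Pklr encodes the liver pyruvate kinase, a classic target of ChREBP (chr3:89136142-89146784, plus strand). It measured 212, 250 and 372 CPM in Flox, 273, 288 and 217 CPM in F4MKO and 271, 240 and 243 CPM in F4MKO + FSTL1 livers. Flox held both the lowest and the highest library and varied the most, with a coefficient of variation of 30.1% against 14.5% in F4MKO and 6.77% in F4MKO + FSTL1. No comparison passed the test, with log2 differences of -0.10 for F4MKO against Flox (interval -0.51 to 0.31, adjusted p = 0.824, edgeR) and -0.05 for F4MKO + FSTL1 against F4MKO (-0.46 to 0.37, adjusted p = 0.886, edgeR). The 3' end of Pklr overlaps Hcn3 on the opposite strand, to which 6257 reads were assigned in the 9 libraries, and the sources used here do not say whether counting used strand. Mlxipl, which encodes ChREBP, overlapped between groups as well (log2 differences -0.24 and 0.34 in the comparisons with F4MKO, adjusted p = 0.541 and 0.224, edgeR).

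Pkm encodes the pyruvate kinase of muscle, immune cells, fibroblasts and dividing cells and is scarce in hepatocytes (chr9:59656368-59679375, plus strand). The Flox libraries held 897, 809 and 863 reads (40.0, 33.1 and 38.3 CPM), the F4MKO libraries 1339, 1018 and 1066 reads (47.4, 42.6 and 42.6 CPM) and the F4MKO + FSTL1 libraries 585, 465 and 578 reads (27.3, 22.3 and 30.2 CPM). None of the 3 groups overlapped another, with F4MKO highest and F4MKO + FSTL1 lowest. Pkm was 1.66-fold lower in F4MKO + FSTL1 than in F4MKO livers (log2 fold change -0.73, SE 0.12, 95% interval -0.995 to -0.468, adjusted p = 0.00272, edgeR). The call held in 9 of 9 fits that left out a library, with log2 fold changes of -0.82 to -0.62. The other 2 differences did not pass: F4MKO exceeded Flox by 0.25 (SE 0.12, interval -0.01 to 0.51, adjusted p = 0.314, edgeR), and F4MKO + FSTL1 differed from Flox by -0.48 (SE 0.12, interval -0.75 to -0.22, adjusted p = 0.128, edgeR). Shared sequence was searched in 1 transcript per gene, the longest paired with a RefSeq accession. For Pkm, 229 of its 2333 stretches of 100 bases (9.82%) also occur in Gm49759, Gm6560 or Gm6992. Part of the Pkm reads could thus have been assigned elsewhere. The transcripts of the other 7 genes share 0 such stretches with another gene.

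Most markers of 4 cell lists fell together with Pkm in F4MKO + FSTL1 against F4MKO livers. Here, fell and rose mean called lower and called higher. Over all tested genes, 11.2% were called lower and 3.21% higher in this comparison. Of the macrophage markers, 7 of 10 fell and 0 rose. Their summed level was 430 to 684 CPM against 985 to 1063 CPM, with 742 to 1129 CPM in Flox. For stellate cells, 7 of 10 markers fell and 0 rose, with sums of 279 to 387 CPM against 587 to 773 CPM, and 433 to 509 CPM in Flox. All 8 markers of proliferating cells fell, from 34.5 to 42.2 CPM in F4MKO to 6.25 to 9.71 CPM, with 16.3 to 29.1 CPM in Flox. Of the tested cholangiocyte markers, 5 of 6 fell. The list summed to 163 to 434 CPM in F4MKO and 36.7 to 54.9 CPM in F4MKO + FSTL1 livers. In Flox the sum was 51.5 to 90.3 CPM. Between F4MKO and Flox, edgeR called 2 of 6 higher in F4MKO, beside 0.202% of all tested genes. DESeq2 called 4 cholangiocyte markers higher there. Against Flox, edgeR called 0 markers of macrophages, stellate cells and proliferating cells in F4MKO livers. At an unadjusted p under 0.05 were 4, 5 and 5 of them, beside 16.9% of all tested genes. DESeq2 called 4 stellate cell markers and 1 proliferation marker higher. It called 1 macrophage marker, Timd4, lower, which is opposite to Pkm. Timd4 averaged 6.85 CPM in Flox, 2.88 CPM in F4MKO and 4.08 CPM in F4MKO + FSTL1 livers. In F4MKO + FSTL1 against Flox livers, edgeR called 1 of 8 proliferation markers lower and 0 markers of the other 3 lists. It called 0.00695% of all tested genes there. At an unadjusted p under 0.05 (edgeR) were 9 of 10 macrophage, 7 of 10 stellate cell, 8 of 8 proliferation and 1 of 6 cholangiocyte markers, all lower. The share over all tested genes was 13.4%. DESeq2 called 4, 3, 7 and 0 of them lower, in the same order. None of the markers of these 4 lists was at 0 in all libraries of a group. The part of these cells in the Pkm values was not tested, and in pieces of whole liver fewer cells of a type and less RNA per cell cannot be told apart.

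The other lists were mixed in this comparison. Of the hepatocyte markers, 2 of 10 rose and 0 fell, and of 4 tested erythroid markers 2 rose and 0 fell. Over all tested genes, 3.21% were called higher and 11.2% lower. The endothelial (10 tested), lymphocyte (7 tested) and neutrophil (3 tested) markers gave 0 calls by edgeR and by DESeq2. At an unadjusted p under 0.05 were 2, 1 and 1 of them, beside 35.3% of all tested genes. Clock genes, which differ with the hour of collection, gave 4 rises and 2 falls among 12, where 14.4% of all tested genes were called. Their summed level was 547 to 652 CPM in F4MKO + FSTL1, 346 to 483 CPM in F4MKO and 350 to 480 CPM in Flox livers. The sum mixes directions, with 8 of the 12 higher and 4 lower in F4MKO + FSTL1 against F4MKO. Against Flox, edgeR called 0 of the 12 in F4MKO + FSTL1 livers, where 0.00695% of all tested genes were called. At an unadjusted p under 0.05 (edgeR) were 8 of the 12, beside 13.4% of all tested genes. DESeq2 called Per2 and Tef higher and Arntl lower in that comparison. A difference in the hour of collection was not tested. Of 9 tested fasting-responsive genes, 2 fell in F4MKO + FSTL1 against F4MKO livers. In F4MKO against Flox, edgeR called 0 genes of these other lists, and DESeq2 called 1, the hepatocyte marker Serpina1c, as lower. At most 2 of a list had an unadjusted p under 0.05, beside 16.9% of all tested genes.

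Pkm was also read against the liver form of the enzyme, as a ratio that does not depend on how libraries are scaled. Within a library, Pkm reads amounted to 18.9%, 13.3% and 10.3% of Pklr reads in Flox, 17.3%, 14.8% and 19.6% in F4MKO and 10.1%, 9.31% and 12.4% in F4MKO + FSTL1 livers. The F4MKO and F4MKO + FSTL1 libraries did not overlap, and the Flox libraries spanned nearly the range of both. The log2 ratio differed by -0.70 between F4MKO + FSTL1 and F4MKO (exact permutation test, two-sided, p = 0.1, the smallest that 3 against 3 libraries can give). It differed by 0.32 between F4MKO and Flox (p = 0.3, exact) and by -0.38 between F4MKO + FSTL1 and Flox (p = 0.2, exact).

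**Figure D3:**
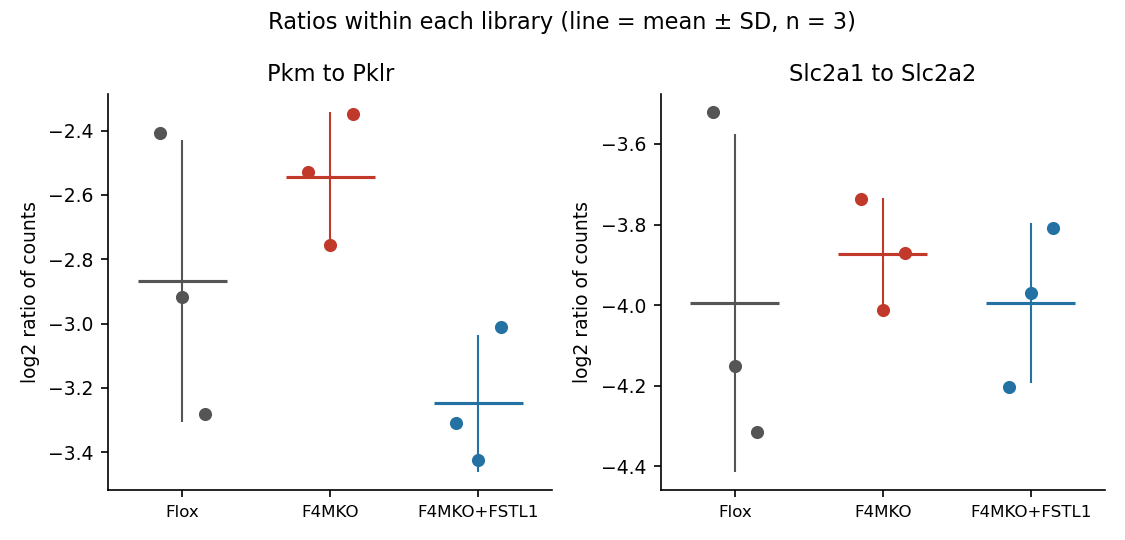
Log2 ratio of read counts within each library (vertical axes) for Pkm to Pklr and for Slc2a1 to Slc2a2 in the 3 groups; points are libraries, horizontal lines means and vertical lines the SD (n = 3). The Pkm to Pklr ratio is separate between F4MKO, averaging -2.54, and F4MKO + FSTL1, averaging -3.25, whereas the Slc2a1 to Slc2a2 ratio overlaps in all groups.

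Fbp1 encodes the fructose-1,6-bisphosphatase of gluconeogenesis and was the most abundant of the 8 (chr13:62864753-62888282, minus strand). It measured 1044, 1008 and 1197 CPM in Flox, 821, 1102 and 993 CPM in F4MKO and 907, 986 and 1129 CPM in F4MKO + FSTL1 livers. The groups overlapped throughout. The log2 differences were -0.16 for F4MKO against Flox (interval -0.46 to 0.15), 0.05 for F4MKO + FSTL1 against F4MKO (-0.26 to 0.36) and -0.10 for F4MKO + FSTL1 against Flox (-0.41 to 0.20), so that a difference of 1.5-fold lies outside all of these intervals. For the other hepatocyte genes, F4MKO + FSTL1 livers differed from Flox by 0.08 for Slc2a2, -0.11 for Khk, 0.04 for Gckr and -0.15 for Pklr on the log2 scale, with adjusted p between 0.825 and 0.924 (edgeR). G6pc, which releases free glucose at the end of the same route, ranged from 300.0 to 596 CPM and overlapped between groups (log2 differences -0.23 and 0.00 in the comparisons with F4MKO, adjusted p = 0.633 and 0.998, edgeR).

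**Figure D4:**
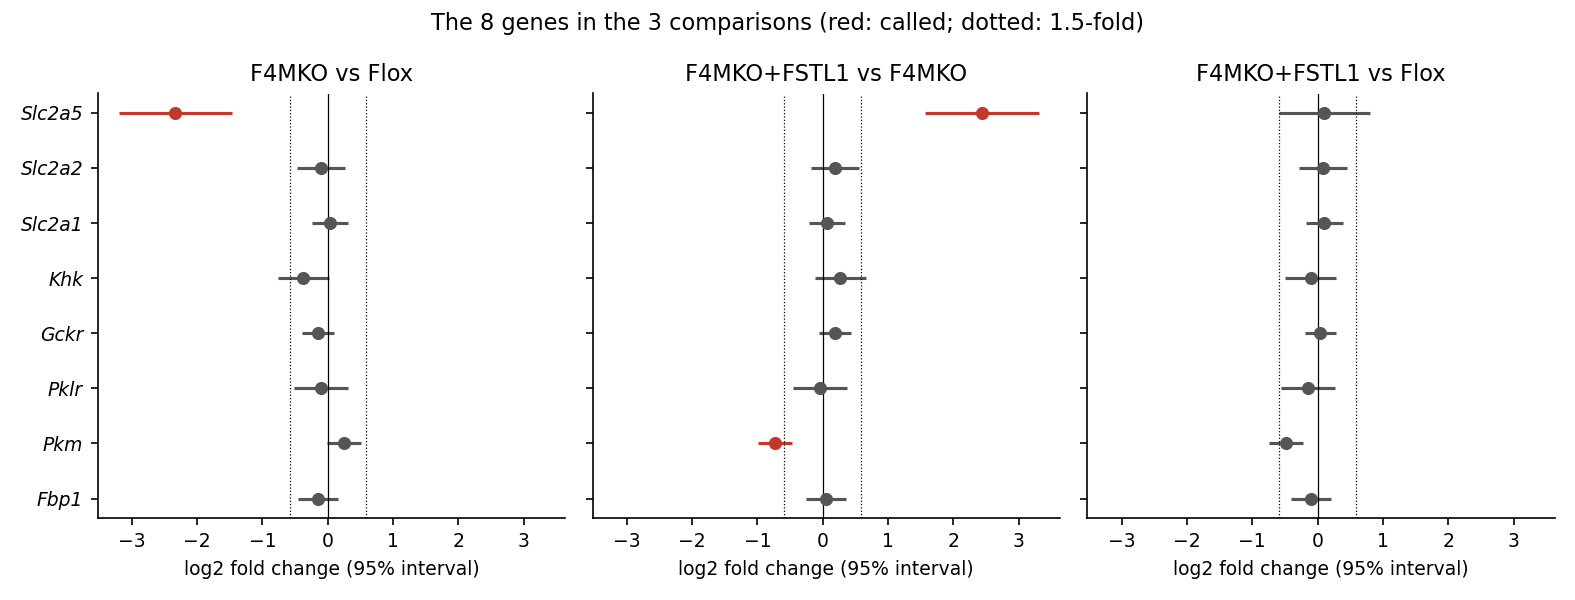
Log2 fold changes of the 8 genes (horizontal axes) in the 3 comparisons; points are the fitted values, lines the 95% intervals, dotted lines mark 1.5-fold, and red marks genes that were called. Slc2a5 is at -2.33 and 2.44 in the comparisons with F4MKO and Pkm at -0.73 in the second, and the intervals of the other genes include 0 in all panels except that of Pkm in the third.

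The genes around these steps were counted in 7 lists that hold 87 genes, of which 80 were tested. Against Flox, edgeR called 0 of the 80 in F4MKO livers, and DESeq2 called 1, the sodium-coupled glucose carrier Slc5a1. By edgeR, 13 of the 80 had an unadjusted p under 0.05, near the share of 16.9% over all tested genes. The median log2 fold change of the 80 was -0.01, beside 0.00 over all tested genes. Between F4MKO + FSTL1 and F4MKO livers, edgeR called 12 of the 80, or 15% beside 14.4% of all tested genes, with 1 higher and 11 lower. Over all tested genes, too, lower calls outnumbered higher ones, 1609 (11.2%) against 461 (3.21%). The median log2 fold change of the 80 was -0.08, beside 0.01 over all tested genes. Against Flox, edgeR called 0 of the 80 in F4MKO + FSTL1 livers, and DESeq2 called 2, Fasn and Pdk4. By edgeR, 17 of the 80 had an unadjusted p under 0.05, beside 13.4% of all tested genes.

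In F4MKO + FSTL1 against F4MKO livers, 11.2% of all tested genes fell and 3.21% rose. In the fructose and polyol list, which surrounds Slc2a5 and Khk, 1 of 6 genes fell and 0 rose. It was Akr1b3, the aldose reductase that turns glucose into sorbitol (log2 fold change -0.80, SE 0.22, adjusted p = 0.0267, edgeR), and it was called in 5 of 9 fits that left out a library. Tkfc, which phosphorylates the glyceraldehyde released from fructose, was not called in either comparison with F4MKO (log2 differences -0.04 and -0.24, adjusted p = 0.884 and 0.163, edgeR). Among 7 other hexose transporters tested, Slc5a1 fell and 0 rose, beside the same shares of all tested genes. It held 65, 54 and 42 reads in Flox, 240, 122 and 111 reads in F4MKO and 24, 20 and 24 reads in F4MKO + FSTL1 libraries, so that no group overlapped another. The fall was 2.43 on the log2 scale (log2 fold change -2.43, SE 0.29, adjusted p = 0.00109, edgeR) and was called in 9 of 9 fits that left out a library.

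Of 23 glycolytic genes tested, 4 fell and 0 rose in F4MKO + FSTL1 against F4MKO livers, beside 11.2% and 3.21% of all tested genes. They were the hexokinases Hk2 (log2 fold change -1.03, adjusted p = 0.0127) and Hk3 (-1.03, adjusted p = 0.00467), the platelet phosphofructokinase Pfkp (-0.93, adjusted p = 0.0102) and the bifunctional regulator Pfkfb4 (-1.03, adjusted p = 0.0489), all by edgeR. Hk3 and Pfkp were called in 9 of 9 fits that left out a library, Hk2 in 7 and Pfkfb4 in 3. None of these 4 is the form characteristic of hepatocytes, as was the case for Pkm, but they were picked by their calls. Slc2a1, also found mainly outside hepatocytes, was not called in this comparison (log2 difference 0.07). Their levels were low, with Hk3 at 5.62, 7.62 and 7.94 CPM in Flox, 10.3, 10.4 and 7.38 CPM in F4MKO and 5.0, 3.80 and 5.01 CPM in F4MKO + FSTL1 livers.

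Each list below is to be read beside 11.2% of all tested genes lower and 3.21% higher in F4MKO + FSTL1 against F4MKO livers. In the gluconeogenic list, which surrounds Fbp1, 1 of 9 genes fell and 0 rose. This was Pck2, the mitochondrial form of phosphoenolpyruvate carboxykinase (log2 fold change -0.87, adjusted p = 0.00168, edgeR). Among 14 genes for the fate of pyruvate and lactate, 2 fell and 1 rose. The pyruvate dehydrogenase kinase Pdk4 fell (-1.62, adjusted p = 0.00189, edgeR), as did the lactate exporter Slc16a3 (-1.24, adjusted p = 0.0374, edgeR), while the kinase Pdk1 rose (0.60, adjusted p = 0.0032, edgeR). Pdk4 was called in 9 of 9 fits that left out a library, Pdk1 in 7 and Slc16a3 in 3, and DESeq2 did not call Slc16a3. Pdk4 is also a fasting-responsive gene, and the hours of collection and feeding of these mice are not given in the sources used here. In the pentose phosphate pathway 1 of 7 genes fell, the glucose-6-phosphate dehydrogenase G6pdx (-0.71, adjusted p = 0.00372, edgeR). Of 14 genes for ChREBP and its targets 1 fell, the fatty acid synthase Fasn (-0.86, adjusted p = 0.0129, edgeR), which was called in 7 of 9 fits that left out a library.

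**Figure D5:**
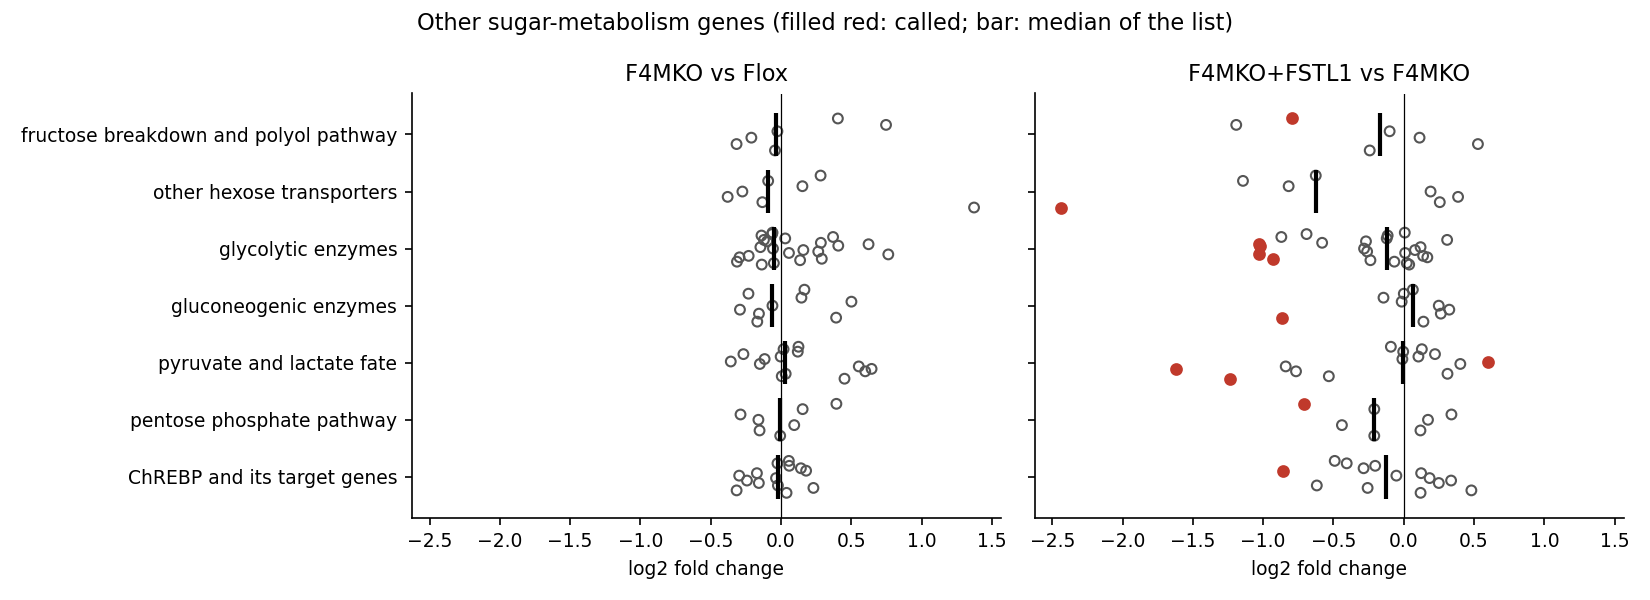
Log2 fold changes (horizontal axes) of the 80 tested genes of 7 sugar-metabolism lists in F4MKO against Flox (left) and F4MKO + FSTL1 against F4MKO (right); each circle is a gene, filled red where called, and the vertical bars are list medians. The left panel holds 0 called genes, and the right panel holds 12, of which 11 lie to the left of 0 and the farthest is Slc5a1 at -2.43.

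For each of the 8 genes, the 3 tested genes with the most similar profile were taken by Pearson's r of log2 CPM over the 9 libraries, as a description, since the libraries share groups and depth. Slc2a5 was closest to Cebpe (r = 0.98), Vwce (0.98) and Lect1 (0.96). Pkm was closest to Rnase6 (r = 0.99), Ssbp4 (0.99) and Vim (0.98), and 442 genes reached an r of 0.9 with it, beside 61 for Slc2a5 and 54 for Khk. Vim encodes the intermediate filament of mesenchymal and immune cells. Slc2a2 was closest to Thrsp (r = 0.98), a lipogenic gene, then Gm6598 (0.97) and Gm29669 (0.93), and Slc2a1 to Fhit (0.93), Hnrnph2 (0.91) and Lrrc8c (0.90). Khk was closest to Tmem208 (0.96), Atp5g1 (0.95) and Rps3 (0.95), Gckr to Gm5595 (0.98), Pdhx (0.94) and Rdh13 (0.94), and Fbp1 to Wfdc2 (0.94), Slc8b1 (0.92) and Ccno (0.91). Pklr had 0 genes at an r of 0.9 or above, and its closest were Gja5 (0.87), Snapc3 (0.85) and Hmgxb4 (0.83).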

How the data were processed

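The authors sequenced 150 bp paired-end reads of whole-liver RNA on a BGIseq500 and, per the labels' processing notes, used Trim Galore 0.6.7, HISAT2 2.2.1, featureCounts 2.0.1 and the build mm10. They deposited raw counts per gene for all 9 libraries. The annotation, the use of strand and the handling of reads that map to several genes are not given in the sources used here.

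Groups were taken from the labels. Genes were kept by edgeR's filterByExpr (minimum count 10, minimum total 15), which left 14379 of 24008. In R 4.3.3 with edgeR 4.0.16, libraries were scaled by TMM (factors 0.927 to 1.17) and all 9 entered a single quasi-likelihood fit with 1 mean per group. The study used DESeq2 with the same thresholds (adjusted p under 0.05, fold change above 1.5), and here DESeq2 1.42.0 was an alternative. Other alternatives were size factors of the DESeq2 type, no filter on low counts, no fold threshold, a replicate block, fits on 6 libraries and fits without each library. The code was tested on simulated counts. CPM are TMM-scaled, with a prior count of 2 where logged. Replicates are different mice with 1 library each, and the p-values measure the spread between these libraries. Totals ran from 20656976 to 24322984 counts.

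The 8 genes and the lists (7 pathway, 10 cell type marker, clock and fasting) were chosen with earlier results of these data known. Named beside the 8 were up to 4 called genes with the largest change per pathway list and comparison, Tkfc, Mlxipl and G6pc for their roles, and the 3 genes most similar to each of the 8. Other genes named by that rule for their roles are not reported here. Positions and lengths come from GENCODE vM21 (GRCm38), using the longest transcript paired with a RefSeq accession, and promoters from RefSeq.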

Additional observations from a re-analysis of the deposited data

How the results depend on the processing

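Few reads behind Slc2a5 and 3 mice per group limit these results. The calls of Slc2a5 and Pkm between F4MKO + FSTL1 and F4MKO held under all alternatives run, and 0 of the 8 genes were called between F4MKO + FSTL1 and Flox under any. Between F4MKO and Flox the count of 1 of the 8 became 0 in the fit on 6 libraries and 0 without any 1 library. Over all genes, the 39 called between F4MKO and Flox became 338 with DESeq2, 478 without the filter on low counts, 134 with the replicate block, 11 on 6 libraries and 0 to 100 without a library. The 1 called between F4MKO + FSTL1 and Flox became 284, 379, 15, 0 and 0 to 101 in the same order, and 2 with size factors of the DESeq2 type. The 2070 called between F4MKO + FSTL1 and F4MKO became 1295 to 2216 without a library. The cause of these shifts was not tested. Uncalled log2 differences near 0 changed sign when a library was left out. For F4MKO against Flox the ranges were -0.27 to 0.0061 for Slc2a2, -0.013 to 0.086 for Slc2a1 and -0.26 to 0.16 for Pklr. For F4MKO + FSTL1 against F4MKO they were -0.049 to 0.18 for Slc2a1, -0.16 to 0.036 for Pklr, -0.059 to 0.15 for Fbp1 and -0.18 to 0.21 for G6pc, which was -0.0040 on 6 libraries. For F4MKO + FSTL1 against Flox they were -0.054 to 0.44 for Slc2a5, -0.079 to 0.20 for Slc2a2, -0.016 to 0.21 for Slc2a1, -0.32 to 0.029 for Khk, -0.049 to 0.14 for Gckr and -0.31 to 0.12 for Pklr. The log2 ratio of Slc2a1 to Slc2a2 ranged from -0.038 to 0.36 for F4MKO against Flox and from -0.16 to 0.24 for F4MKO + FSTL1 against Flox.

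Replicate numbers were not taken as pairing the libraries, since the labels give no shared origin and some correlations were near 0 or below: deviations from the group means of libraries with the same number correlated with r of 0.04 to 0.17 for F4MKO and Flox, 0.09 to 0.30 for F4MKO + FSTL1 and F4MKO and -0.10 to 0.21 for F4MKO + FSTL1 and Flox. As a hint from the data, 5, 6 and 2 of 6 libraries correlated best with their own number, and on the second principal component (12.7% of the variance) replicate 3 of each group lay at 16.8 to 24.2 and the other libraries at -20.7 to 2.40. The replicate block changed no call of the 8 genes and gave Slc2a5 log2 fold changes of -2.32 and 2.45 in the comparisons with F4MKO.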
